A study of Mus musculus with 6 samples.

Results

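The genes described here encode 10 surface proteins by which mouse haematopoietic stem cells (HSCs) are recognised or sorted, namely *Slamf1*, *Cd48*, *Ly6a*, *Cd34*, *Procr*, *Esam*, *Cd27*, *Eng*, *Tek* and *Pdzk1ip1*. They were taken by symbol from the expression table, where all 10 were found among 46959 rows. RNA had been sequenced from bone marrow HSCs, sorted as lineage-negative Sca-1+ c-Kit+ CD150+ CD48- cells, in 3 control and 3 MaeaCsf1r-Cre libraries. The MaeaCsf1r-Cre mice carried floxed *Maea* and a *Csf1r*-iCre transgene on a C57BL/6 background, whose promoter is best known from mononuclear phagocytes, so that recombination was not limited to HSCs. Controls were littermates, and the labels do not say which of these alleles they carried. The mice were 8 weeks old by the series' design and 7 to 12 weeks by the paper's methods, which name both sexes. Each library came from 2000 HSCs pooled from 2 mice, so p-values measure the spread between such pools.

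HSCs are told from the progenitors they produce by combinations of antigens. In the SLAM scheme CD150 (*Slamf1*) is kept on HSCs and CD48 (*Cd48*) appears on multipotent progenitors, while Sca-1 (*Ly6a*) and c-Kit (*Kit*) mark the stem and progenitor compartment. CD34 is low on the most quiescent HSCs, EPCR (*Procr*) is high on HSCs that engraft well, and ESAM, endoglin (*Eng*) and TIE2 (*Tek*) are shared by HSCs and endothelium. The sort had fixed the proteins CD150, CD48, Sca-1 and c-Kit in both groups, so mRNA of their genes was measured in cells already selected on the protein, and the other 7 markers were not part of the gate.

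Depth was worked out from the smallest steps in each column, and came to 32954000 to 39600000 reads in control and 44141000 to 60915000 reads in MaeaCsf1r-Cre libraries. A signal of 3 reads was 0.0492 to 0.0910 CPM (counts scaled to the depth of the library), against 7.61 CPM for the lowest value of any of the 10 markers. *Maea*, by which the labels were checked, was at 108 to 123 CPM in control and 76.9 to 101 CPM in MaeaCsf1r-Cre libraries, without overlap. The log2 difference was -0.39 (limma adjusted p = 0.967), and 6.06% of all genes were lower without overlap, so this check of the labels is weak. All 7 genes of a list that defines HSCs were found in every library, with *Fgd5* lowest at 6.81 CPM, while 3 of 6 lineage antigen genes, such as *Cd3e*, did not reach 1 CPM. The others were present, with *Itgam*, the gene of CD11b, at 3.96 to 9.34 CPM and *Ly6c2* at 0.0226 to 9.80 CPM. The last, *Ptprc*, encodes CD45, of which only the B220 form was a lineage antigen of the sort. Values per gene do not separate the forms. Transcripts of other cells were present. *Stab2*, a receptor of sinusoidal endothelium, was at 10.1, 0.202 and 41.3 CPM in control and at 0.427, 0.362 and 66.2 CPM in MaeaCsf1r-Cre replicates 1, 2 and 3.

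None of the 10 markers differed between the groups at an adjusted p under 0.05 (limma, Benjamini-Hochberg over 12955 genes), where 0.00772% of all genes did. None had groups that did not overlap, beside 8.55% of all genes, made up of 2.49% higher and 6.06% lower in MaeaCsf1r-Cre libraries. By mean log2 fold change *Cd48*, *Ly6a* and *Slamf1* were higher in MaeaCsf1r-Cre HSCs and the other 7 were lower, of which *Procr* and *Pdzk1ip1* stood furthest, at -0.55 each. By this measure the 3 higher markers are antigens of the gate, but *Kit*, the remaining gate antigen gene, was lower at -0.38, and 5 of the 10 markers turned direction when a library was left out. The median log2 fold change of the markers was -0.21, beside -0.06 over all genes tested, of which 60.9% were lower. It was -0.02 without MaeaCsf1r-Cre replicate 1, where the median of all genes was -0.05, and -0.39 without MaeaCsf1r-Cre replicate 3, and it was -0.35, -0.10 and -0.11 without control replicates 1, 2 and 3. At an unadjusted p under 0.05 there were 0 of 10 markers in limma, beside 3.99% of all genes. Blocking on the replicate number gave 5 of 10, namely *Pdzk1ip1*, *Procr*, *Cd48*, *Ly6a* and *Cd34*, beside 13.9% of all genes. The limma adjusted p of the 10 then ranged from 0.281 to 0.936. What libraries of the same number share is not given by the labels. Fold changes, also called log2 differences here, are differences between group means of log2(CPM + 1), and higher and lower refer to these.

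**Figure D1:**
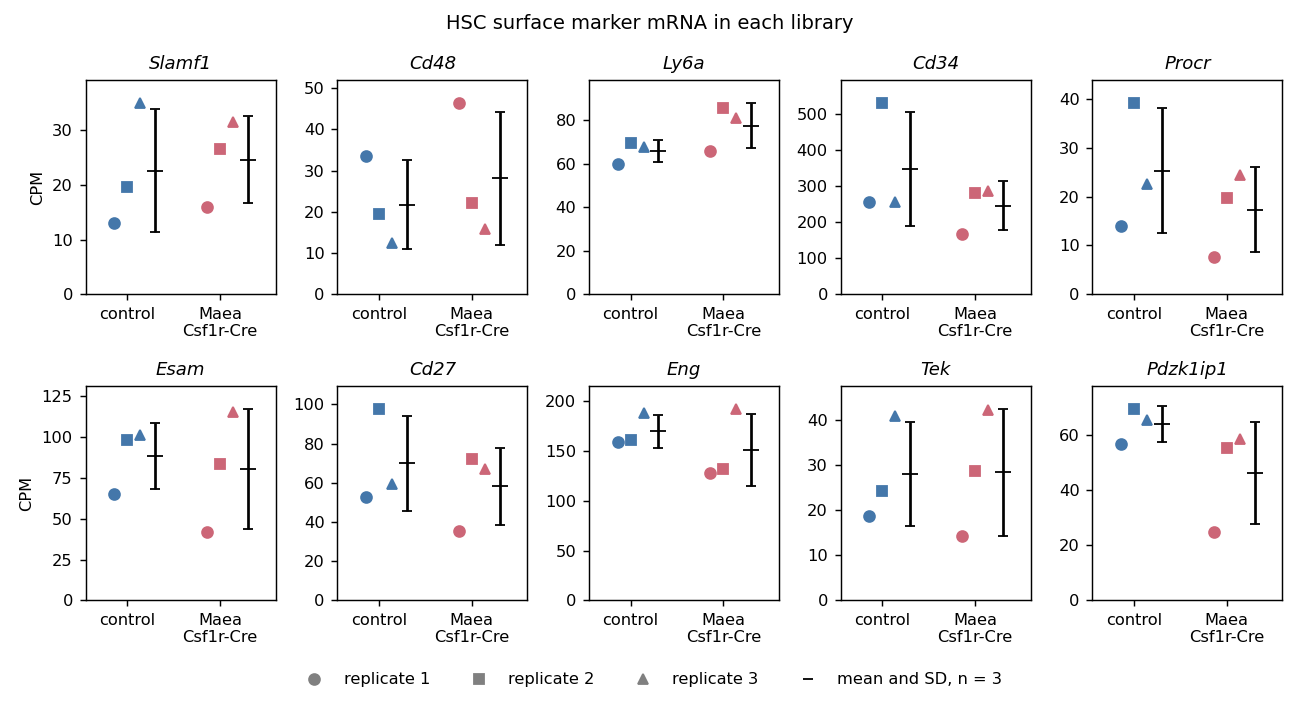
Expression of the 10 surface markers in CPM, 1 panel for each gene with its own axis from 0, in 3 control (blue) and 3 MaeaCsf1r-Cre (red) libraries, with a symbol for each replicate number and the mean and SD (n = 3) in black. The groups overlap in every panel, and for *Slamf1*, *Cd48* and *Tek* libraries of the same number lie at similar heights in both groups.

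The SLAM receptors of the gate were examined first. CD150 is a receptor that binds CD150 on other cells, and CD48 is a lipid-anchored ligand of CD244. Their genes are neighbours on chromosome 1 of GRCm38 (mm10), *Cd48* from 171682009 to 171705258 and *Slamf1* from 171767127 to 171801184, both on the plus strand with 61868 bases between them. *Slamf1* was expressed at 13.1, 19.6 and 35.1 CPM in control replicates 1, 2 and 3 and at 15.9, 26.6 and 31.5 CPM in MaeaCsf1r-Cre replicates 1, 2 and 3. *Cd48* was expressed at 33.5, 19.4 and 12.4 CPM in control and at 46.5, 22.1 and 15.8 CPM in MaeaCsf1r-Cre replicates 1, 2 and 3. The libraries took almost opposite orders for these genes. Both libraries numbered 1 were lowest for *Slamf1* and highest for *Cd48*, both numbered 3 were highest for *Slamf1* and lowest for *Cd48*, and both numbered 2 lay between.

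The mean of *Slamf1* was 22.6 ± 11.3 CPM in control and 24.6 ± 7.98 CPM in MaeaCsf1r-Cre HSCs (SD, n = 3 each), with a log2 difference of 0.18 with a 95% interval from -0.68 to 1.03. The mean of *Cd48* was 21.8 ± 10.7 and 28.1 ± 16.2 CPM (SD, n = 3 each), with a log2 difference of 0.32 with an interval from -0.70 to 1.35. Both differences were smaller than the SD of either group. *Cd48* was higher in the MaeaCsf1r-Cre library of all 3 same-numbered pairs, by 0.46, 0.18 and 0.33 on the log2 scale, and *Slamf1* in 2 of 3. The log2 fold change of *Cd48* turned to -0.10 without MaeaCsf1r-Cre replicate 1 and to -0.0070 without control replicate 3, and that of *Slamf1* to -0.02 without MaeaCsf1r-Cre replicate 3 and to -0.14 without control replicate 1.

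A ratio within a library does not depend on the scaling between libraries. The log2 ratio of *Slamf1* to *Cd48*, each as CPM + 1, was -1.29, 0.01 and 1.43 in control and -1.49, 0.25 and 0.95 in MaeaCsf1r-Cre replicates 1, 2 and 3. Its mean was 0.05 ± 1.36 in control and -0.09 ± 1.26 in MaeaCsf1r-Cre HSCs (SD, n = 3 each), so the groups differed by less than the spread within each of them (two-sided exact permutation p = 0.9, adjusted p = 0.9 over 3 ratios, with 0.1 the smallest p possible). The difference of -0.15 turned to 0.55 without MaeaCsf1r-Cre replicate 1 and to 0.54 without control replicate 3.

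Progenitor transcripts differed between the same libraries. The 8 erythroid markers, all detected, summed to 3893, 1405 and 854 CPM in control and to 4152, 1645 and 1889 CPM in MaeaCsf1r-Cre replicates 1, 2 and 3, most of it *Car1*, a carbonic anhydrase of early erythroid cells. The 8 granulocyte markers summed to 228, 109 and 27.9 CPM in control and to 122, 64.9 and 4.58 CPM in MaeaCsf1r-Cre replicates 1, 2 and 3. Most of this was *Mpo*, and 4 of the 8 did not reach 1 CPM. Within each group both sums, like *Cd48*, were highest in the library numbered 1. Their part in the levels of *Cd48* and *Slamf1* was not tested. In such pools, fewer cells of a type and less RNA in each cell cannot be told apart.

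The sequences before the starts of *Slamf1*, of its neighbour *Cd48* with the opposite pattern, of *Tek*, the marker whose pattern was closest to that of *Slamf1*, and of *Pdzk1ip1*, the marker lower in every same-numbered pair, are shown so that they can be compared. Each holds the 250 bases before the RefSeq start (GRCm38.p6), 5′ to 3′ on the plus strand, which is the strand of all 4 genes. Capitals mark matches to any of 6 motifs of blood cell transcription factors, searched on both strands.
Slamf1 (chr1:171766882-171767131): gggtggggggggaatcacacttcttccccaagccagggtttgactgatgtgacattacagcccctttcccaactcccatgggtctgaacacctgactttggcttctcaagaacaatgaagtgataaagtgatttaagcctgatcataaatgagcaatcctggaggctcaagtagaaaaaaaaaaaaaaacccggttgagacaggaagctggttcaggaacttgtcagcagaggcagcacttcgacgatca
Cd48 (chr1:171681742-171681991): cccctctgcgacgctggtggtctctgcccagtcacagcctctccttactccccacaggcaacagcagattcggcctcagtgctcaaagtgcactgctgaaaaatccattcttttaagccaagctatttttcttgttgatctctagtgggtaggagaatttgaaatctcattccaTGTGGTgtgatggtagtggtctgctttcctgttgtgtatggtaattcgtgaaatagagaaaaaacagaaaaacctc
Tek (chr4:94739039-94739288): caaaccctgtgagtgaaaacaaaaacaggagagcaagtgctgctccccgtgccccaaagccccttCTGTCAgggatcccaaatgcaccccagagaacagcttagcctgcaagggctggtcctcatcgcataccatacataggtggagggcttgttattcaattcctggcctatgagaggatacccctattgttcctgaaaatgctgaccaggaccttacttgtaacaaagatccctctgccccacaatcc
Pdzk1ip1 (chr4:115088458-115088707): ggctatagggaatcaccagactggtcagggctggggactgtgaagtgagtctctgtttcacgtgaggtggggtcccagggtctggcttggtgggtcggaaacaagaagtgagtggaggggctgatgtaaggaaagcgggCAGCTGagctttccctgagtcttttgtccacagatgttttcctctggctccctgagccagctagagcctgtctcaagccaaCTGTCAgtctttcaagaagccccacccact

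The motifs searched were AGATAA for the GATA factors, TGTGGT for RUNX factors, CAGGAAGT for ETS factors, TGACAG for MEIS factors, CAGCTG for the E-box and TTCNNNGAA for STAT factors, and no matches overlapped. The *Slamf1* sequence held no match, that of *Cd48* held the RUNX letters and that of *Tek* the MEIS letters. *Pdzk1ip1* held the MEIS and the E-box letters. Sequences were found for 8 of the 10 markers, all but *Ly6a* and *Esam*, and of the others *Procr* held the E-box letters. Over all 32851 such sequences RUNX letters were found in 14.0%, MEIS letters in 15.9%, E-box letters in 13.001%, GATA letters in 9.99%, ETS letters in 2.69% and STAT letters in 7.02%.

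Sca-1, a lipid-anchored protein of the Ly6 family, is encoded by *Ly6a* on chromosome 15 (74994877 to 74998031, minus strand). *Ly6a* was expressed at 59.9, 69.6 and 67.6 CPM in control and at 65.8, 85.8 and 81.2 CPM in MaeaCsf1r-Cre replicates 1, 2 and 3. Of the MaeaCsf1r-Cre libraries only replicate 1 lay within the control range, and each was above its same-numbered control, by 0.13, 0.30 and 0.26 on the log2 scale. The mean was 65.7 ± 5.11 CPM in control and 77.6 ± 10.5 CPM in MaeaCsf1r-Cre HSCs (SD, n = 3 each), with a log2 difference of 0.23 (standard error 0.14, 95% interval -0.10 to 0.56, limma adjusted p = 0.967). With the replicate block the adjusted p was 0.349. Without MaeaCsf1r-Cre replicate 1, the library within the control range, the log2 fold change was 0.34. The groups then did not overlap, beside 1773 of 12900 genes tested without that library. The log2 fold change was 0.15 without MaeaCsf1r-Cre replicate 2. *Ly6a* lies among similar genes, and how reads shared by several of them were counted is not given in the sources used here, so its level is uncertain to that extent.

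c-Kit, the receptor of stem cell factor, completes the gate. *Kit* was at 551 to 700.1 CPM in control and 393 to 562 CPM in MaeaCsf1r-Cre libraries, a log2 difference of -0.38 (standard error 0.17, limma adjusted p = 0.967). The log2 ratio of *Ly6a* to *Kit* was -3.18, -3.31 and -3.06 in control and -2.56, -2.38 and -2.78 in MaeaCsf1r-Cre replicates 1, 2 and 3. Every MaeaCsf1r-Cre library was above every control library, although neither gene alone separated the groups, as 8.55% of single genes did. How often ratios of other genes separate the groups was not tested. An exact sign-flip test over the same-numbered pairs gave p = 0.25 for this ratio, also the smallest possible. The mean was -3.19 ± 0.12 in control and -2.57 ± 0.20 in MaeaCsf1r-Cre HSCs (SD, n = 3 each), a difference of 0.61 (two-sided exact permutation p = 0.1, the smallest possible, adjusted p = 0.3 over 3 ratios). Of the 4 gate genes none passed the test, and their median log2 fold change was 0.20, or 0.01 without control replicate 1.

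**Figure D2:**
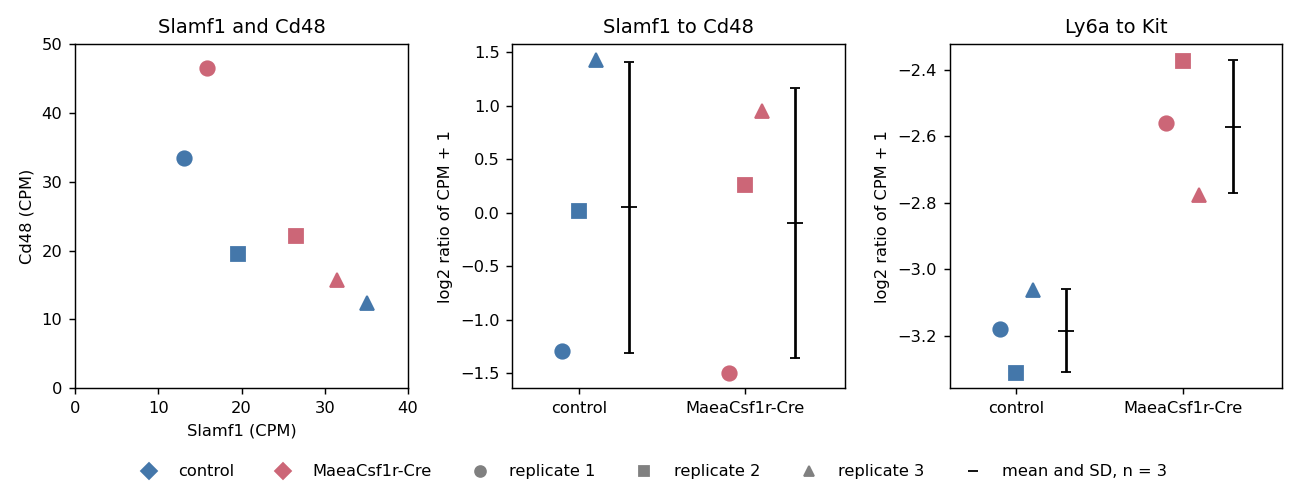
Left, *Cd48* against *Slamf1* in CPM in 6 libraries, and middle and right, the within-library log2 ratios of *Slamf1* to *Cd48* and of *Ly6a* to *Kit*, with the mean and SD (n = 3) in black. The first ratio overlaps between the groups, and the second lies at -3.31 to -3.06 in control and -2.78 to -2.38 in MaeaCsf1r-Cre libraries.

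*Cd34*, *Cd27* and *Procr* were not part of the gate. CD34 is a sialomucin of progenitors and vessels, CD27 a TNF receptor family member that binds CD70, and EPCR binds protein C. *Cd34* was at 257, 531 and 256 CPM in control and at 167, 281 and 287 CPM in MaeaCsf1r-Cre replicates 1, 2 and 3. *Cd27* was at 52.9, 97.7 and 59.1 CPM in control and at 35.4, 72.1 and 66.9 CPM in MaeaCsf1r-Cre replicates 1, 2 and 3. *Procr* was at 14.1, 39.3 and 22.6 CPM in control and at 7.61, 19.7 and 24.5 CPM in MaeaCsf1r-Cre replicates 1, 2 and 3. For these genes control replicate 2 was the highest library and MaeaCsf1r-Cre replicate 1 the lowest, and the groups overlapped.

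The mean of *Cd34* was 348 ± 159 CPM in control and 245 ± 67.6 CPM in MaeaCsf1r-Cre HSCs (SD, n = 3 each), with a log2 difference of -0.45 (95% interval -1.20 to 0.29). That of *Procr* was 25.3 ± 12.8 and 17.3 ± 8.72 CPM (SD, n = 3 each), with a log2 difference of -0.55 (interval -1.64 to 0.54). That of *Cd27* was 69.9 ± 24.3 and 58.1 ± 19.8 CPM (SD, n = 3 each), with a log2 difference of -0.27 (interval -1.004 to 0.45). Each was lower in 2 of 3 same-numbered pairs. Without MaeaCsf1r-Cre replicate 1 the log2 fold change was -0.20 for *Cd34*, -0.08 for *Procr* and 0.04 for *Cd27*, and without control replicate 2 it was -0.10, -0.19 and -0.01. The log2 ratio of *Procr* to *Cd34* was -3.75 ± 0.33 in control and -3.85 ± 0.40 in MaeaCsf1r-Cre HSCs (SD, n = 3 each, two-sided exact permutation p = 0.7, adjusted p = 0.9 over 3 ratios), and its difference of -0.10 turned to 0.12 without MaeaCsf1r-Cre replicate 1 and to 0.06 without control replicate 3. Exons of *Cd34* overlap those of the antisense gene *Gm16897*, which did not exceed 2.81 CPM.

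*Tek*, *Esam* and *Eng* are expressed in HSCs and in vessels. TIE2 is the receptor of angiopoietins, ESAM an adhesion molecule of cell junctions and endoglin a co-receptor for ligands of the TGF-beta and BMP family. *Tek* was at 18.8, 24.3 and 40.9 CPM in control and at 14.1, 28.7 and 42.2 CPM in MaeaCsf1r-Cre replicates 1, 2 and 3. *Esam* was at 65.1, 98.5 and 101 CPM in control and at 42.1, 83.7 and 116 CPM in MaeaCsf1r-Cre replicates 1, 2 and 3. *Eng* was at 159, 161 and 188 CPM in control and at 128, 132 and 192 CPM in MaeaCsf1r-Cre replicates 1, 2 and 3. For each gene the library numbered 3 was the highest of its group and MaeaCsf1r-Cre replicate 1 was the lowest of all.

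The mean of *Tek* was 28.0 ± 11.5 CPM in control and 28.4 ± 14.0 CPM in MaeaCsf1r-Cre HSCs (SD, n = 3 each), slightly higher in the latter, while the difference between mean log2 values was -0.04. Its 95% interval, -0.98 to 0.91, allowed 0.506-fold to 1.88-fold, and its direction turned under 4 of the 9 settings that can move it, to 0.38 without MaeaCsf1r-Cre replicate 1, to 0.27 without control replicate 3, to 0.01 with median-ratio scaling and to 0.07 with quantile normalization. *Esam* had a mean of 88.3 ± 20.2 and 80.5 ± 36.9 CPM (SD, n = 3 each), with a log2 difference of -0.22 (interval -1.03 to 0.59), which turned to 0.18 without MaeaCsf1r-Cre replicate 1. *Eng* had a log2 fold change of -0.19 (interval -0.60 to 0.22). Without MaeaCsf1r-Cre replicate 3, its highest library, it was -0.38 and the groups did not overlap, beside 2740 of 12709 genes tested. It was -0.09 without MaeaCsf1r-Cre replicate 1 and -0.11 without either MaeaCsf1r-Cre replicate 2 or control replicate 3. Exons of *Eng* overlap those of *Fpgs* on the other strand, which reached 59.5 CPM, and without strand the reads of these genes cannot be told apart.

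As a sum, endothelial markers were highest in the libraries numbered 3. The 12 markers of that list summed to 144, 132 and 257 CPM in control and to 78.8, 103 and 337 CPM in MaeaCsf1r-Cre replicates 1, 2 and 3. Not each marker followed this. *Egfl7* was at 61.2, 73.4 and 60.5 CPM in control and at 53.2, 57.0 and 78.9 CPM in MaeaCsf1r-Cre replicates 1, 2 and 3. *Cdh5*, the cadherin of endothelial junctions, was at 5.82, 0.278 and 12.999 CPM in control and at 0.624, 0.566 and 22.1 CPM in MaeaCsf1r-Cre replicates 1, 2 and 3, while *Sox17* and *Lyve1* did not exceed 0.496 CPM. *Stab2* and *Cdh5* were under 1 CPM in 3 libraries, control replicate 2 and MaeaCsf1r-Cre replicates 1 and 2, where *Tek* was at 24.3, 14.1 and 28.7 CPM and *Esam* at 98.5, 42.1 and 83.7 CPM. Those of MaeaCsf1r-Cre replicate 1 were the lowest of all 6. The part of endothelial transcripts in the values of the libraries numbered 3 was not tested.

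*Pdzk1ip1* on chromosome 4 (115088708 to 115093899, plus strand) encodes a small membrane protein, MAP17, that binds the scaffold PDZK1. It was expressed at 56.6, 69.3 and 65.5 CPM in control and at 24.7, 55.2 and 58.5 CPM in MaeaCsf1r-Cre replicates 1, 2 and 3. It was the only marker lower in all 3 same-numbered pairs, with differences of -1.16, -0.32 and -0.16 on the log2 scale, as were 23.5% of all genes tested. Only MaeaCsf1r-Cre replicate 3 lay within the control range. The mean was 63.8 ± 6.50 CPM in control and 46.1 ± 18.6 CPM in MaeaCsf1r-Cre HSCs (SD, n = 3 each), with a log2 difference of -0.55 (standard error 0.31, 95% interval -1.25 to 0.16, limma adjusted p = 0.967, and 0.281 in the blocked fit). The groups did not overlap without MaeaCsf1r-Cre replicate 3, with a log2 fold change of -0.76, beside 2740 of 12709 genes tested. Nor did they overlap without control replicate 1, with -0.63, beside 3700 of 12761 genes tested. The log2 fold change was -0.16 without MaeaCsf1r-Cre replicate 1.

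**Figure D3:**
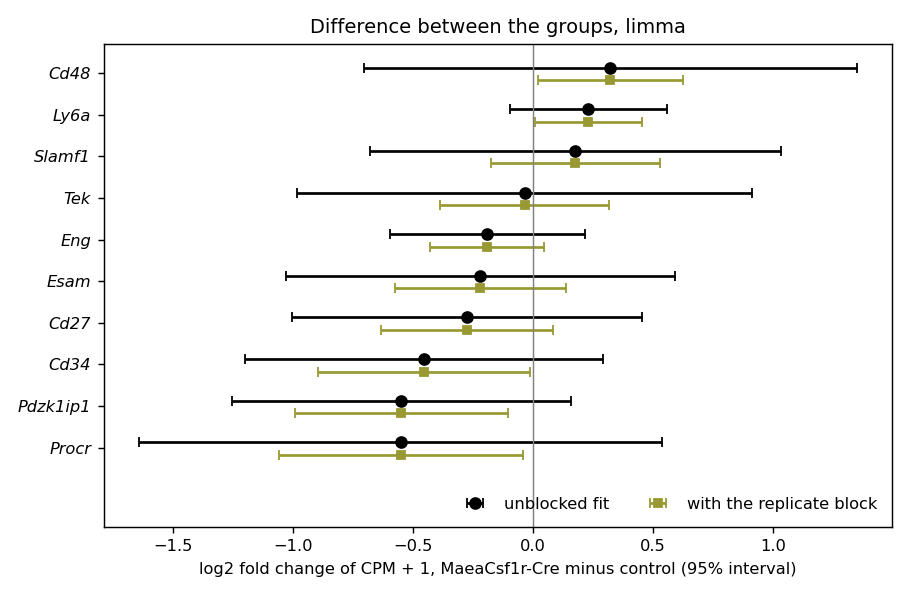
Log2 fold change of CPM + 1 for the 10 surface markers, MaeaCsf1r-Cre minus control, with 95% intervals from limma without (black circles) and with (olive squares) the replicate number as a block. All unblocked intervals include 0, and with the block those of *Cd48*, *Ly6a*, *Cd34*, *Pdzk1ip1* and *Procr* do not, although no adjusted p was under 0.05.

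The spread between libraries of a group was wide for most of the markers. The residual SD of log2(CPM + 1) had a median of 0.55 over the 10 markers, beside 0.24 over all genes tested, and 9 of the 10 were above the latter. *Procr* had a residual SD of 0.77, above that of 97.6% of all genes, and *Cd48* one of 0.73, above that of 97.0%. *Ly6a*, at 0.16, was the only marker below the median of all genes. MaeaCsf1r-Cre replicate 1 was the lowest library for the 7 markers outside the gate and the highest for *Cd48*. Over all genes tested it was the lowest library for 30.3% and the highest for 25.4%. It was also the deepest library, and the part of depth was not tested.

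**Figure D4:**
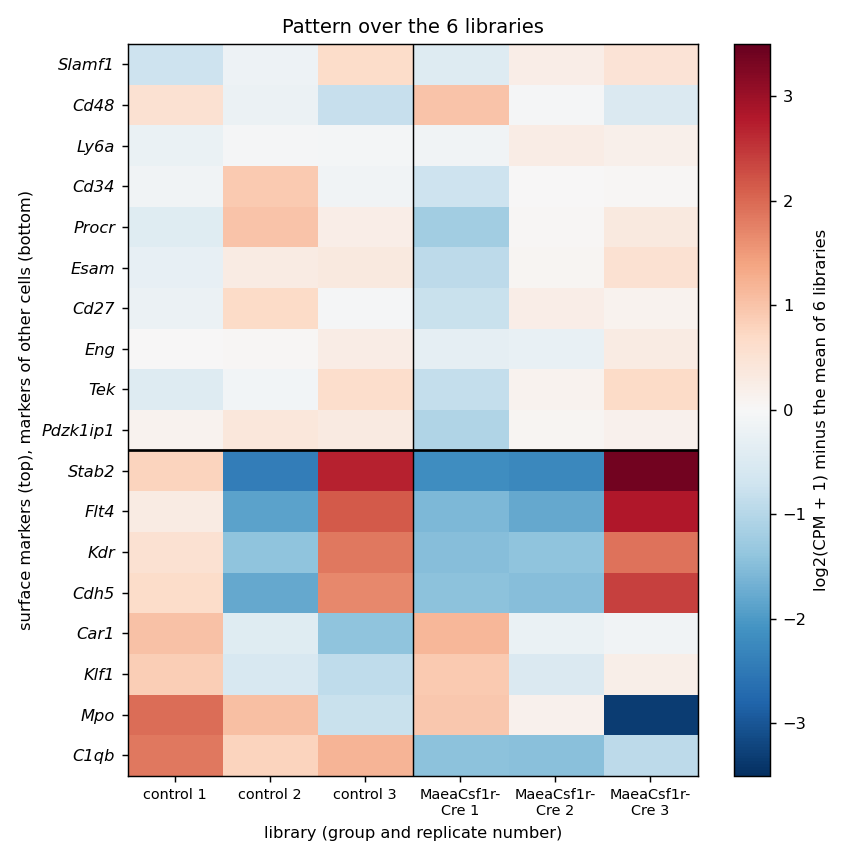
Colour shows log2(CPM + 1) minus the mean of 6 libraries for the 10 surface markers (top) and for 8 markers of endothelial, erythroid, granulocyte and macrophage cells (bottom), with the 3 control libraries on the left. *Cd48* runs opposite to *Slamf1* and *Tek*, and *Stab2* is highest in the libraries numbered 3, at 41.3 and 66.2 CPM.

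Patterns over the 6 libraries were compared as the root-mean-square difference between centred log2(CPM + 1) values, for the 8 markers that spanned at least 1 on that scale, which left out *Ly6a* and *Eng*. Among the markers *Cd34* and *Cd27* were the closest pair, with a difference of 0.152, and *Slamf1* and *Tek* were each other's closest at 0.211. The closest marker to *Cd48* was *Ly6a*, at 0.709. Among 12954 other genes the one most like *Cd48* was the histone gene *Hist1h1b* at 0.254, followed by *Spon2* at 0.270. *Slamf1* was closest to *Decr2* at 0.105 and *Guca1a* at 0.111, and *Tek* to *Bok* at 0.0777 and *Hoxb2* at 0.113. *Cd27* was closest to *Napsa* at 0.0359 and *Ier2* at 0.0555, and *Cd34* to *Spaca6* at 0.0666 and *Themis2* at 0.0903. *Procr* was closest to *Plxna3* at 0.0880 and *Zbtb20* at 0.116, *Esam* to *Tmem86a* at 0.0546 and *Slc16a13* at 0.0612, and *Pdzk1ip1* to *Fbxo32* at 0.0610 and *Hnmt* at 0.0725.

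Levels of different markers were compared per kb of annotated exons, as the mean over 6 libraries. *Ly6a* was highest, at 59.5 ± 8.17 CPM per kb (SD, n = 6), followed by *Cd34* at 40.7 ± 16.8, *Eng* at 39.6 ± 6.71, *Pdzk1ip1* at 30.9 ± 8.87 and *Esam* at 29.4 ± 9.40 CPM per kb. Next came *Cd27* at 27.5 ± 8.95, *Cd48* at 20.98 ± 10.7, *Procr* at 10.5 ± 5.29, *Tek* at 5.98 ± 2.44 and *Slamf1* at 3.84 ± 1.43 CPM per kb. Only *Ly6a* and *Cd34* differed as neighbours in this order by more than the larger of their SDs. *Ly6a* was above 94.1% and *Slamf1* above 39.5% of the genes tested that have a length. *Cd48* was above *Slamf1* per kb in 6 of 6 libraries, although the sort had kept cells with CD150 and without CD48 protein. Per kb of the longest coding transcript this held in 5 of 6 libraries, and *Cd34* took the first place at 116 CPM per kb.

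**Figure D5:**
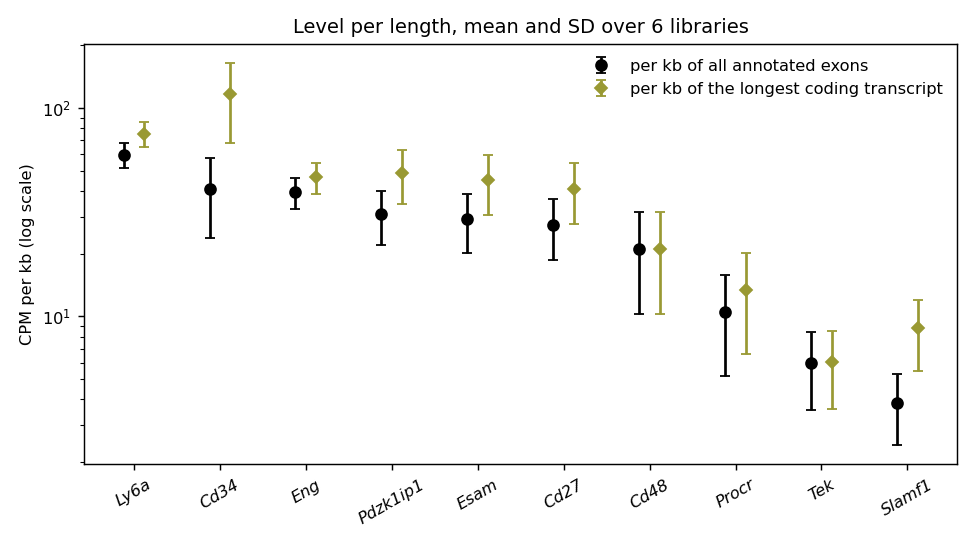
Level of each surface marker in CPM per kb on a log scale, as the mean and SD over 6 libraries, per kb of all annotated exons (black) and of the longest coding transcript (olive). *Ly6a* leads at 59.5 and *Slamf1* is last at 3.84 CPM per kb of exons, while *Cd34* reaches 116 CPM per kb of its longest coding transcript.

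Relatives and binding partners of the markers were then examined. Of 40 such genes tested, 0 had an adjusted p under 0.05 in limma with or without the replicate block, and 1 had an unadjusted p under 0.05, beside 3.99% of all genes, or 10 with the block, beside 13.9%. By mean log2 value 30 were lower, beside 60.9% of all genes, and 10 higher in MaeaCsf1r-Cre HSCs, with a median log2 fold change of -0.23. The gene with the unadjusted p was *Smad5*, which carries BMP signals. It was at 51.2, 71.2 and 62.6 CPM in control and at 35.4, 47.3 and 45.2 CPM in MaeaCsf1r-Cre replicates 1, 2 and 3, without overlap, a log2 difference of -0.52 (standard error 0.17, limma adjusted p = 0.967). *Tgfbr1*, a receptor of TGF-beta, had a log2 difference of -0.30 (standard error 0.20). Of the 9 genes tested in the list of endoglin and BMP receptors, *Eng* included, 8 were lower by mean, beside 60.9% of all genes, with a median of -0.25.

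*Angpt1*, the ligand of TIE2, was at 216 to 386 CPM in control and 130 to 254 CPM in MaeaCsf1r-Cre libraries, which overlap, a log2 difference of -0.63 (standard error 0.29, limma adjusted p = 0.967, and 0.0874 in the blocked fit). *Tie1*, the related receptor, had a log2 difference of -0.53 (standard error 0.42). All 5 genes tested in the list of TIE2 and angiopoietins, *Tek* included, were lower by mean, beside 60.9% of all genes, with a median of -0.29. All 4 junctional genes tested, *Esam* included, were lower by mean, beside the same share of all genes, with a median of -0.46. *Jam2* was at -0.46 (standard error 0.38) and *Jam3* at -0.54 (standard error 0.47). The PDZK1 list had 3 genes tested, *Pdzk1ip1* included, all lower by mean, beside 60.9% of all genes. In it *Slc9a3r2* was at -0.66 (standard error 0.38) and *Slc9a3r1* at -0.10 (standard error 0.23), and *Pdzk1* itself did not exceed 0.228 CPM. Without MaeaCsf1r-Cre replicate 1 the medians of the TIE2, junctional, PDZK1 and endoglin lists were -0.07, -0.04, -0.16 and -0.09. Those of the PDZK1 and endoglin lists were the values of *Pdzk1ip1* and *Eng* themselves.

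The remaining lists, which also count their own markers, had medians between -0.17 and 0.07. In the SLAM list 7 genes were tested, with a median of 0.07 that ran from -0.04 to 0.12 over the settings that kept all libraries and was -0.19 without control replicate 1 and -0.08 without MaeaCsf1r-Cre replicate 1, and *Ly9* was at -0.52 (standard error 0.35) and *Cd84* at -0.31 (standard error 0.23). *Cd244*, the receptor of CD48, was at 2.68 to 5.48 CPM. In the CD34 list of 6 tested genes, with a median of -0.13 that turned to 0.19 without MaeaCsf1r-Cre replicate 1, 0.23 without MaeaCsf1r-Cre replicate 2 and 0.22 without control replicate 1, the CD34 relative *Podxl* had a log2 difference of 0.72 (standard error 0.36) and the selectin gene *Selp* one of 0.79 (standard error 0.46), beside -0.45 for *Cd34*. In the protein C list of 7, with a median of -0.17, or -0.03 without MaeaCsf1r-Cre replicate 1, the thrombin receptor gene *F2r* was at 0.40 (standard error 0.23) and *Pros1* at -0.31 (standard error 0.32). The CD27 list of 6 had a median of -0.04 that ran to 0.05 with quantile normalization, with *Traf2* at 0.16 (standard error 0.13) and *Map3k14* at -0.38 (standard error 0.36). The Ly6 list of 3 had a median of -0.03 that turned to 0.02 with median-ratio scaling and to 0.10 at a CPM minimum of 10, with *Ly6e* at -0.03 (standard error 0.11) and *Ly6c2* at -0.87 (standard error 0.87). *Cd70* and *Proc*, the genes of the ligands of CD27 and EPCR, were at 0 in every library.

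HSC markers outside the 10 were compared in the same way. Of 17 such genes 14 were lower by mean in MaeaCsf1r-Cre HSCs, beside 60.9% of all genes, with a median log2 fold change of -0.25, or -0.06 without MaeaCsf1r-Cre replicate 1 and -0.07 without control replicate 3. None passed the test in limma, with 1 at an unadjusted p under 0.05, beside 3.99% of all genes, and 5 in the blocked fit, beside 13.9%. The gene at the unadjusted p was *Neo1*, a receptor of netrins, at 4.34, 4.54 and 3.59 CPM in control and at 0.443, 2.04 and 2.55 CPM in MaeaCsf1r-Cre replicates 1, 2 and 3, without overlap (log2 fold change -1.04, standard error 0.35, limma adjusted p = 0.967). The adhesion molecule gene *Alcam* was at -0.84 (standard error 0.41). The list of 7 genes that define HSCs holds *Slamf1*, *Ly6a* and *Procr* beside 4 genes outside the 10 markers. Of the 7 genes 5 were lower by mean, beside 60.9% of all genes, and their median of -0.55 was the value of *Procr* itself. *Hlf*, a transcription factor of HSCs, was at -0.78 (standard error 0.44). All 7 progenitor markers tested, of 10 found, were lower by the mean of log2(CPM + 1), beside 60.9% of all genes, with a median of -0.45. *Mpo* at -1.47 (standard error 1.10) was among them. *Flt3*, a receptor of lymphoid-primed progenitors, was at 67.2, 120 and 34.4 CPM in control and at 15.7, 33.7 and 37.0 CPM in MaeaCsf1r-Cre replicates 1, 2 and 3, which overlap (log2 fold change -1.24, standard error 0.47, limma adjusted p = 0.967). The 12 macrophage markers summed to 76.1, 22.3 and 64.8 CPM in control and to 4.27, 9.06 and 49.7 CPM in MaeaCsf1r-Cre replicates 1, 2 and 3, and their part in these values was not tested.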

How the data were processed

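RNA of sorted HSCs was sequenced in 3 control and 3 MaeaCsf1r-Cre libraries made with SMART-Seq v4 and Nextera XT kits. The authors used STAR 2.5.3a to place the single-end reads on mm10, quantified them to Ensembl transcripts (release 83) and normalised them in Partek Flow, and Trim Galore is named in the submitters' processing notes. The deposited values are CPM with 0.0001 added, which was subtracted here. Strand was not stated. Of low values 80.0 to 82.4% lay within 0.1 of a whole read, so counts were not recovered.

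The 12955 genes that reached a CPM of 1 in 3 or more libraries entered limma as log2(CPM + 1), with the moderated two-sided test and a mean-variance trend, with Benjamini-Hochberg adjustment over all of them and a threshold of 0.05. The code was tested on simulated data. Markers and lists were chosen with earlier results of these data known, and the motifs and printed sequences after seeing the data. Across genes, deviations from the group mean went together in same-numbered libraries (Pearson's r of 0.627, 0.523 and 0.397, against -0.459 to -0.0538 for other pairs). Such deviations cancel out within a group, so positive values for some pairs force negative ones for others. A second fit held that number as a block, called the replicate block. The labels do not say what libraries of the same number share, so the blocked values rest on no documented pairing. Within-library ratios were tested by exact permutation, and over same-numbered pairs by an exact sign-flip test. Positions and exon lengths follow GENCODE M21 (GRCm38), which held 44119 of 46959 symbols, and 27 symbols had become dates.

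Named beside the markers were *Maea*, *Kit*, the genes of smallest p in each list (at most 2) and the 2 genes most like each marker. *Stab2*, *Cdh5*, *Egfl7*, *Sox17*, *Lyve1*, *Car1*, *Fgd5*, *Cd244*, *Flt4*, *Pf4*, *Vcam1*, *Mrc1*, *Fpgs*, *Gm16897* and genes at or near 0 were named after their values were seen. Alternatives were a pseudocount of 0.1, no filter, a CPM minimum of 10, median-ratio scaling, quantile normalization, the block, no trend, each library left out, and the longest coding transcript as length. R 4.3.3, limma 3.58.1, Python 3.11.15, numpy 2.4.6, pandas 2.3.3, scipy 1.17.1 and matplotlib 3.10.9 were used.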

Additional observations from a re-analysis of the deposited data

How the results depend on the processing

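Of 13 settings, 4 cannot move a fold change (a CPM minimum of 10, no filter, no trend and the replicate block). Of the 90 refits of the 10 markers under the other 9 settings, 80 kept their direction and 10 turned it. *Ly6a*, *Cd34*, *Procr*, *Eng* and *Pdzk1ip1* never turned. *Tek* turned to 0.0125 with median-ratio scaling, 0.0717 with quantile normalization, 0.38 without MaeaCsf1r-Cre replicate 1 and 0.27 without control replicate 3. Leaving out each library gave -0.10 to 0.68 for *Cd48*, -0.14 to 0.54 for *Slamf1*, -0.54 to 0.18 for *Esam*, -0.46 to 0.0417 for *Cd27*, -0.38 to 0.38 for *Tek*, and -0.39 to -0.02 for the median of the 10 markers. It gave differences of -0.82 to 0.55 for the log2 ratio of *Slamf1* to *Cd48* and -0.27 to 0.12 for that of *Procr* to *Cd34*, and 0 to 2 markers whose groups did not overlap. Over all genes the limma count at an adjusted p under 0.05 was 1, with 0 at a CPM minimum of 10 and 0 to 1 with a library left out. The count of genes without overlap was 733 at a CPM minimum of 10, 1978 without a filter and 1654 to 3700 with a library left out. With the longest coding transcript as length 6 markers changed place. The replicate block left 0 markers with an adjusted p under 0.05 and 1 gene overall. The cause of these changes was not tested. With 3 libraries a group, intervals for *Cd48*, *Slamf1*, *Tek* and *Esam* were too wide to exclude a change by 1.5 times either way in limma. Those for *Cd34*, *Procr*, *Cd27*, *Eng* and *Pdzk1ip1* did not exclude a decrease of that size.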

Other observations

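Marker lists of other cell types not yet described were measured in the same libraries, and none of their genes had an adjusted p under 0.05 in limma. The 6 megakaryocyte markers summed to 414, 256 and 1040 CPM in control and to 344, 668 and 379 CPM in MaeaCsf1r-Cre replicates 1, 2 and 3, with the highest value in control replicate 3, where *Pf4* was at 507 CPM. In that list the log2 fold change of *Ppbp* was -0.83 (standard error 0.40) and that of *Gp5* 0.26 (standard error 0.21). Of the erythroid markers *Epor* was at 0.51 (standard error 0.38) and *Hbb-bs* at 0.50 (standard error 0.50), and of the granulocyte markers *Ctsg* was at 0.29 (standard error 0.997). All 10 endothelial markers tested were lower by the mean of log2(CPM + 1), beside 60.9% of all genes, with a median of -0.63. However, *Stab2*, *Cdh5* and *Flt4* had higher mean CPM in MaeaCsf1r-Cre libraries. *Emcn* was at -0.83 (standard error 0.48) and *Sox18* at -0.76 (standard error 0.90).

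Of 8 B cell markers 7 did not reach 1 CPM, and *Cd79b* was at 12.9 to 27.2 CPM, a log2 difference of -0.20 (standard error 0.29). Of the T and NK cell markers *Nkg7* was at 38.7 to 85.4 CPM and *Cd4* at 0.272 to 3.16 CPM. In the list of lineage antigens *Itgam* was at -0.48 (standard error 0.25). *Ptprc*, whose value covers all forms of CD45 and not only B220, was at -0.33 (standard error 0.21). Of 8 macrophage markers tested 5 had an unadjusted p under 0.05, beside 3.99% of all genes, and all 8 were lower by the mean of log2(CPM + 1), beside 60.9%, with *C1qb* at -2.55 (standard error 0.32, limma adjusted p = 0.194) and *C1qc* at -2.51 (standard error 0.34, limma adjusted p = 0.205), and 0.0615 for each with the replicate block.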
